A study of Mus musculus with 1778 samples.

Results

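The genes described here are 9 Wnt ligands, Wnt1, Wnt3, Wnt3a, Wnt4, Wnt5a, Wnt5b, Wnt6, Wnt7b and Wnt8b, read across single cells of the mouse head. They were chosen by name, out of 19 Wnt ligand genes and 24920 genes in the count table, and all 9 had reads. The cells were C57BL/6 cranial cells with tdTomato fluorescence, sorted singly from Wnt1::Cre; Rosa26TdTomato embryos at 4, 6, 8 and 10 somites. Libraries were made by Smart-Seq2, which covers transcripts end to end and uses no molecular identifiers. In all 4 groups, Cre from a Wnt1-driven transgene removes a stop in front of tdTomato at the Rosa26 locus, and the label then stays on in all descendants, so that a labelled cell need not hold Wnt1 transcript when it is collected. The labels do not name the Cre line, whether its transgene carries Wnt1 sequence, the number of embryos or the embryo of any cell. Each stage is therefore 1 pool, cells are not replicates, and no test between stages was possible.

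After filtering, 1728 of 1778 cells remained, of which 12.7%, 48.3%, 13.1% and 25.8% were of 4, 6, 8 and 10 somites. The median cell had 470500, 342300, 517600 and 351800 reads on genes, with spike-ins and Rn45s left out. Rn45s, the 45S pre-ribosomal RNA, took 44.4% to 59.2% of the reads of a stage. Levels are given as RPM, reads per 1000000 of the remaining reads, and shares of cells were read after every cell had been thinned to 100000 such reads. Intervals are exact 95% intervals and cover counting error only. The title of each cell carries 1 of 8 numbers, read here as the plate and called A to H in the order of the numbers. The labelled cell type is cranial neural crest, and Sox10, a transcription factor that marks crest cells, was read in 15.5%, 31.97%, 74.01% and 80% of cells in the order of stages. Sox2, a transcription factor of the neural plate, was read in 72.3%, 56.7%, 52.9% and 50.9%.

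Some pools stood apart. At 8 somites all but 15 cells came from plate B, those 15 came from plate D, and 12 of them fell in cluster 8, described further on. The same cluster held 27 of the 55 cells of 10 somites on plate B. Cells of clusters 8 and 15 detected 8241 and 8764 genes in the median at equal depth, against 6182 in the other clusters. Cluster 8 had at least 5 RPM of 11 of 13 markers of neuroepithelium, 10 of 11 of neural crest, 10 of 13 of surface ectoderm and 9 of 11 of endothelium, against 3 and 2 of those 11 in the late crest-like clusters 4 and 7. Whether wells of these clusters held more than 1 cell was not tested, so a cell with reads of 2 genes is strictly a well with reads of both. Values without clusters 8 and 15, a choice made after the data were seen, are given beside the results that they move most.

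Wnt ligands are secreted, lipid-modified glycoproteins. Porcn attaches the lipid, Wls carries the ligand to the cell surface, and Frizzled receptors with the co-receptors Lrp5 and Lrp6 receive it, which stabilises beta-catenin and lets it act with TCF/LEF factors on targets such as Axin2, Sp5 and Nkd1. Wnt5a and Wnt5b signal mostly without beta-catenin, through receptors such as Ror2. In the mouse embryo Wnt1 and Wnt3a are made in the dorsal midline of the neural tube and Wnt1 also in a ring at the boundary of midbrain and hindbrain, and together they expand the neural crest and its precursors. Wnt8b is known from the forebrain, Wnt6 from surface ectoderm and Wnt7b from forebrain and other epithelia.

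The Wnt1 gene lies on the plus strand of chr15:98789857-98793837 (mm10) and Wnt3a on the minus strand of chr11:59248033-59290752, and no other gene model overlaps them. The other ligands lie at chr11:103774150-103817957 (Wnt3), chr4:137277489-137299726 (Wnt4), chr14:28504750-28527448 (Wnt5a), chr6:119432531-119544347 (Wnt5b), chr1:74771892-74785322 (Wnt6), chr15:85535437-85582473 (Wnt7b) and chr19:44493472-44514273 (Wnt8b). Upstream sequences of Wnt1 and Wnt3a are shown because these 2 ligands had the most similar pattern across cells. Both are the 250 bases before the start site in the RefSeq promoter table of GRCm38.p6, written 5′ to 3′ on the gene's own strand, Wnt1 from chr15:98789607-98789856 and Wnt3a from chr11:59290752-59291001. Capitals mark matches, on either strand, to CTTTG, the core of TCF/LEF sites, and to ACAAT, a core of SOX sites, which reads ATTGT on the other strand.
Wnt1: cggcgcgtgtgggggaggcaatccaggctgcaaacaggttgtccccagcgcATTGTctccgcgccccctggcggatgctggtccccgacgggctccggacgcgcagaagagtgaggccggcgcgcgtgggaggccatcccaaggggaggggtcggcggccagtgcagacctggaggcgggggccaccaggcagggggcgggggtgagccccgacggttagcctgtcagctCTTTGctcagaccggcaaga
Wnt3a: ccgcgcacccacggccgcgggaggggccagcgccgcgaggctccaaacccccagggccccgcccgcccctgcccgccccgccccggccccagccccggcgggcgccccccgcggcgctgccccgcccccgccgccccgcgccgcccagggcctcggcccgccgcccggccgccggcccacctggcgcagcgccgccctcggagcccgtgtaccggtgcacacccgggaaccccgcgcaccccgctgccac
The Wnt1 window held CTTTG once, at position -20 from the start, and ACAAT once, at -199 on the other strand. The Wnt3a window held neither. TAATTA, a homeodomain core, was in neither window. Of all 32851 windows, 48.6% held CTTTG, 27.7% held ACAAT and 4.84% held TAATTA, so a match is common and is a description of the letters only. The table matched 7 of the 9 ligands with 9 windows, of which 5 held CTTTG. Guanine and cytosine made up 71.6% of the Wnt1 window and 87.6% of the Wnt3a window, against a median of 52.4%.

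Wnt1 reads were fewest at 10 somites. Its summed level was 99.4 RPM (interval 97.5 to 101.3) at 4 somites. It was 63.5 RPM (62.6 to 64.4) at 6 somites, 46.9 RPM (45.7 to 48.1) at 8 somites and 24.3 RPM (23.6 to 25.1) at 10 somites. The level at 10 somites was thus 4.08-fold below that at 4 (log2 ratio -2.03). Between plates Wnt1 varied more than counting error allows. The 10-somite plates stood at 22.1, 27.2 and 54.5 RPM and the 4-somite plates at 73.7 and 146.7, and these ranges did not overlap. The 5 plates of 6 somites ran between 56.1 and 83.1 RPM (66.1 ± 10.6, SD, n = 5 plates), inside which no 10-somite plate fell. At 8 somites, plate B gave 39.8 RPM and the 15 cells of plate D gave 150.8, as high as the 146.7 RPM of the 4-somite cells on that plate.

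Plates that held more than 1 stage allow the ratio to be taken within a plate. On plate F, Wnt1 had 58.6 RPM at 6 somites and 73.7 at 4 (log2 ratio -0.33). On plate B it had 56.1, 39.8 and 27.2 RPM at 6, 8 and 10 somites, and the log2 ratio of 10 over 6 was -1.04. The sum of these steps, 10 over 4 by way of 6 somites, was -1.37. By way of 8 somites, with the 15 cells of plate D as the link, it was -0.50. Wnt1 was lower at the later stage by every route, and the size of the difference ran from 0.50 to 2.03 on the log2 scale.

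**Figure D1:**
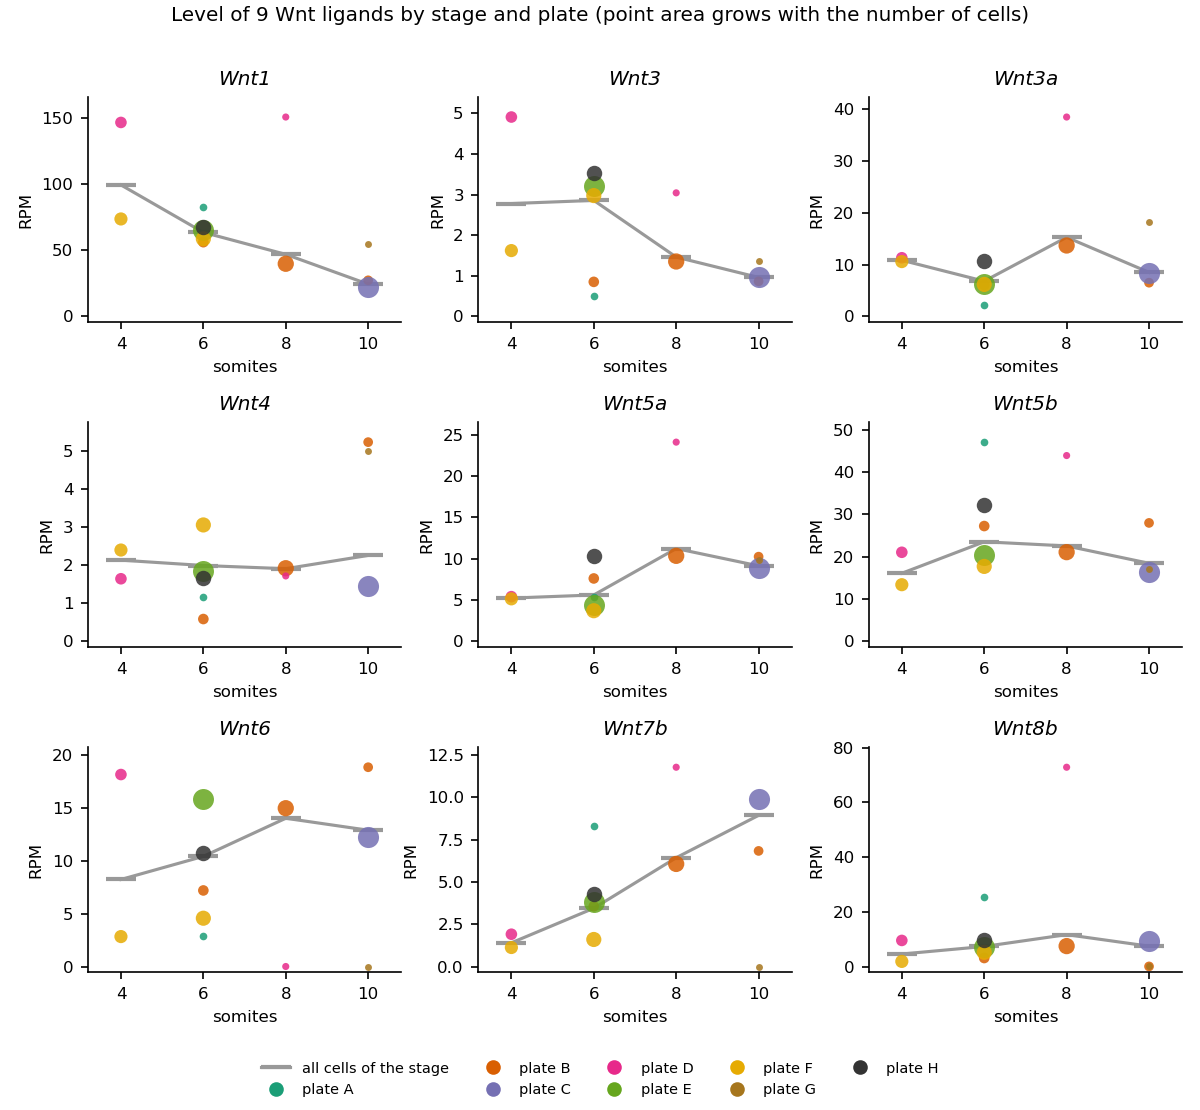
Level in RPM (y axis, linear, its own scale in each panel) of the 9 ligands at 4, 6, 8 and 10 somites (x axis). Grey bars and lines are all cells of a stage and points are plates, with an area that grows with the number of cells. The Wnt1 line goes down from 4 to 10 somites, with 1 plate far above it at 8 somites with 15 cells, and for Wnt6 and Wnt8b plates of 1 stage lie as far apart as the stages do.

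Wnt3 and Wnt3a act through beta-catenin as Wnt1 does. Wnt3a had 10.8, 6.79, 15.3 and 8.49 RPM at 4, 6, 8 and 10 somites, with no steady trend, and its 8-somite value was 13.7 RPM on plate B alone. Wnt3 was scarce, with 2.78, 2.86, 1.46 and 0.958 RPM. It was more variable between plates than between stages, from 0.505 to 3.54 RPM over the 6-somite plates alone.

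Wnt7b differed most in the direction opposite to Wnt1. It had 1.40, 3.44, 6.43 and 8.93 RPM at 4, 6, 8 and 10 somites, and the log2 ratio of 10 over 4 was 2.67. Within plates the ratio was 1.44 by way of 6 somites and 2.80 by way of 8. The 10-somite plates had 6.83 RPM (plate B), 9.87 (plate C) and 0 reads (plate G, 12 cells), and the 4-somite plates had 1.12 and 1.91. The plate with 0 reads would have shown 3 reads at 0.406 RPM, so the ranges overlap through its 12 cells alone, 11 of which belonged to the ectomesenchyme-like cluster.

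Wnt8b and Wnt6 depended on the plate. For Wnt8b the stages gave 4.57, 7.33, 11.7 and 7.44 RPM, but at 10 somites plate C gave 9.46 RPM while plates B and G had 1 and 2 reads (0.0331 and 0.271 RPM). At 8 somites the 15 cells of plate D gave 72.9 RPM against 7.46 on plate B. Wnt6 had 8.22, 10.4, 14 and 12.9 RPM by stage, with 18.1 and 2.83 RPM on the 4-somite plates and 0 reads on both of the plates with 15 and 12 cells, where 3 reads would have been 0.397 and 0.406 RPM. The log2 ratio of 10 over 4 was 0.70 for Wnt8b over all cells but -4.50 and -4.30 within plates by way of 6 and 8 somites. For Wnt6 it was 0.65 over all cells and 2.08 by way of 6 somites, and by way of 8, where 0 reads were set at 3, it was -5.18. No direction can be given for either. The span of the Wnt6 gene, introns included, is overlapped on the other strand by the gene model Gm29539. Whether their exons overlap was not read, and the sources used here do not say whether counting used strand. It is therefore not known whether reads of the pair were counted apart. The same holds for Wnt5a with Gm2670, Wnt5b with Fbxl14 and Wnt7b with AU022754.

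Wnt5b and Wnt5a, which signal mostly without beta-catenin, were read on every plate. Wnt5b had 16.1, 23.5, 22.6 and 18.5 RPM by stage and 13.4 to 47.1 RPM over all plates. Wnt5a had 5.24, 5.61, 11.2 and 9.13 RPM, with 24.1 RPM in the 15 cells of plate D at 8 somites. The 10-somite plates of Wnt5a (8.84, 9.88 and 10.2 RPM) lay above the 4-somite plates (5.14 and 5.41 RPM), yet the within-plate ratio by way of 6 somites was -0.04 and that by way of 8 was 2.14. Wnt4, with 2.14, 1.99, 1.91 and 2.26 RPM, was near 2 RPM at every stage over all cells (log2 ratio of 10 over 4, 0.08). Within plates its ratio was 3.47 by way of 6 somites and 1.55 by way of 8, both past 2-fold. On plate B alone Wnt4 had 5.24 RPM at 10 somites and 0.588 at 6.

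Between 10 and 4 somites, 7 of the 9 ligands reached 5 RPM at 1 of the stages. Of these, 1 was higher by at least 2-fold (Wnt7b) and 1 was lower (Wnt1). Over all 10205 genes with that level, 6.17% were higher and 6.65% lower by 2-fold. The median log2 ratio was 0.65 for the 7 ligands and 0.01 for all genes. From 4 to 6 somites 0 of 6 ligands passed 2-fold in either direction (all genes, 2.12% higher and 0.733% lower). From 6 to 8 somites 1 of 7, Wnt3a, was higher with a log2 ratio of 1.17 and 0 were lower (2.84% and 3.56%). From 8 to 10 somites 0 of 7 passed (0.593% and 0.774%). On plate B, where 10 and 6 somites share a plate, 2 of 7 were higher (Wnt4 and Wnt6) and 1 was lower (Wnt1), against 6.72% and 6.53% of all genes. Counts this small stand close to those shares.

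Per kilobase of exon, Wnt1 led at every stage. It had 41.8, 26.7, 19.7 and 10.2 RPM per kb at 4, 6, 8 and 10 somites, which was 70.6%, 55.98%, 41.8% and 31.9% of the sum over the 9 ligands. Wnt5b was next each time, with 6.07, 8.87, 8.5 and 6.95 RPM per kb. At 4 somites Wnt3a (3.92 RPM per kb) and Wnt6 (3.75) followed, and at 10 somites Wnt6 (5.87) and Wnt3a (3.07). Given the plate spread of Wnt6 and Wnt3a, their order relative to each other is not settled. Wnt3, Wnt4, Wnt5a and Wnt7b held the last 4 places at each of 4, 6, 8 and 10 somites, between 0.286 and 1.82 RPM per kb. The other 10 Wnt ligands in the table never reached 5 RPM at a stage.

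The share of cells with Wnt1 reads moved with its level. After thinning, Wnt1 reads were found at 4 somites in 56.8% of cells (interval 49.99 to 63.5) and at 6 somites in 43.4% (39.99 to 46.8). At 8 somites they were found in 26.9% (21.2 to 33.1), and at 10 somites in 19.1% (15.5 to 23.1). Without thinning the shares were 67.3%, 49.8%, 37.4% and 25.3%. The median reads in a cell that had any were 9, 6, 6 and 5. As a background, 1 of 58 endothelial-like cells, a type not known to make Wnt1, had Wnt1 reads at the same depth. Plates of 4 somites gave 56.5% and 57.03%, and 4 of the 6-somite plates gave 42.2% to 43.7%. The fifth, plate A with 21 cells, gave 76.2%. At 10 somites plate C gave 15.8%, plate B gave 36.4% of 55 cells and plate G gave 41.7% of 12. The share at 10 somites thus rests largely on plate C.

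At 4 and 6 somites Wnt1 was read in more cells than any of the other 8 ligands, and at 8 and 10 somites Wnt5b and Wnt5a were read in more cells than Wnt1. Wnt5b was read in 25.5%, 31.4%, 39.6% and 35.2% of cells at 4, 6, 8 and 10 somites, and Wnt5a in 18.2%, 16.3%, 34.8% and 27.5%. Wnt7b was read in 3.64%, 4.09%, 10.6% and 10.9%. Over all stages Wnt3a was read in 11.6% of cells, Wnt8b in 9.54%, Wnt6 in 8.67%, Wnt3 in 5.70% and Wnt4 in 5.003%. The cells without reads of any of the 9 made up 16.4%, 27.5%, 28.6% and 40% of the stages. Those with reads of at least 3 ligands made up 18.2%, 16.2%, 25.6% and 19.3%. Cluster 8 had 3 or more ligands in 55.8% of its cells, and without clusters 8 and 15 the share with at least 3 was 18.99% at 8 somites and 12.8% at 10. The share with Wnt1 reads was then 13.04% at 10 somites, that with Wnt6 reads 3.26% against 6.82% in all cells, that with Wnt7b reads 6.52% against 10.9%, and that with Wnt4 reads 2.99% against 4.77%.

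Whether a labelled cell still held Wnt1 reads differed with its Sox10 reads, and the direction was not the same at every stage. At 4 somites Wnt1 was read in 31 of 34 cells with Sox10 reads (91.2%, 76.3 to 98.1) and in 50.5% of cells without (43.1 to 57.9). At 6 somites the shares were 68.4% (62.5 to 73.96) with Sox10 reads and 31.6% (27.8 to 35.6) without. At 8 somites they were 27.98% (21.3 to 35.4) and 14 of 59 (23.7%, 13.6 to 36.6), whose intervals overlap. At 10 somites they were 17.9% (14.04 to 22.3) and 21 of 88 (23.9%, 15.4 to 34.1), which overlap as well.

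Levels followed the same course. Wnt1 had 168.2 RPM in cells with Sox10 reads and 82.7 in cells without at 4 somites, 94.2 and 50.1 at 6, and 51.5 and 31.02 at 8. At 10 somites the order was the other way, with 17.6 RPM in cells with Sox10 reads and 61.5 in cells without. The level also differed with the amount of Sox10 at 6 and 10 somites. Cells with 10 or more Sox10 reads had 78.3 RPM of Wnt1 at 6 somites and 14.02 at 10, and cells with 1 to 9 Sox10 reads had 158.3 and 48.9. Most Sox10-read cells thus had Wnt1 reads at 4 somites, and few had them at 10. The 31 cells with both genes at 4 somites were mostly outside the crest-like clusters described further on. Of them 16 were in cluster 5, led by Fos and Egr1, 6 in the early crest-like cluster 3 and 6 in the surface ectoderm-like cluster 6. Cluster 5 was not without crest genes. It had at least 5 RPM of 9 of 11 neural crest markers, with Foxd3 and Sox9 at least 2-fold over the rest. Summed over the 11, it had 534.6 RPM against 845.7 in the rest.

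Plates bear on this split. In 8 pools of 1 stage and plate with at least 10 cells on each side, the share was higher with Sox10 reads in 6, all of them of 4 or 6 somites, and lower in the 2 others, of 8 and 10 somites. Among 6-somite plates the share in Sox10-read cells ran from 59.2% to 81.2% over the 5 plates, and in the 4 plates with at least 10 cells without Sox10 reads it ran from 9.09% to 39.02% in those cells. At 8 somites 22.1% of Sox10-read cells had Wnt1 reads on plate B and 13 of 14 (92.9%) on plate D. At 10 somites the shares in Sox10-read cells were 13.99% on plate C, 35.4% of 48 cells on plate B and 45.5% of 11 on plate G. Every 4-somite plate (83.3% and 95.5%) lay above every 10-somite plate.

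**Figure D2:**
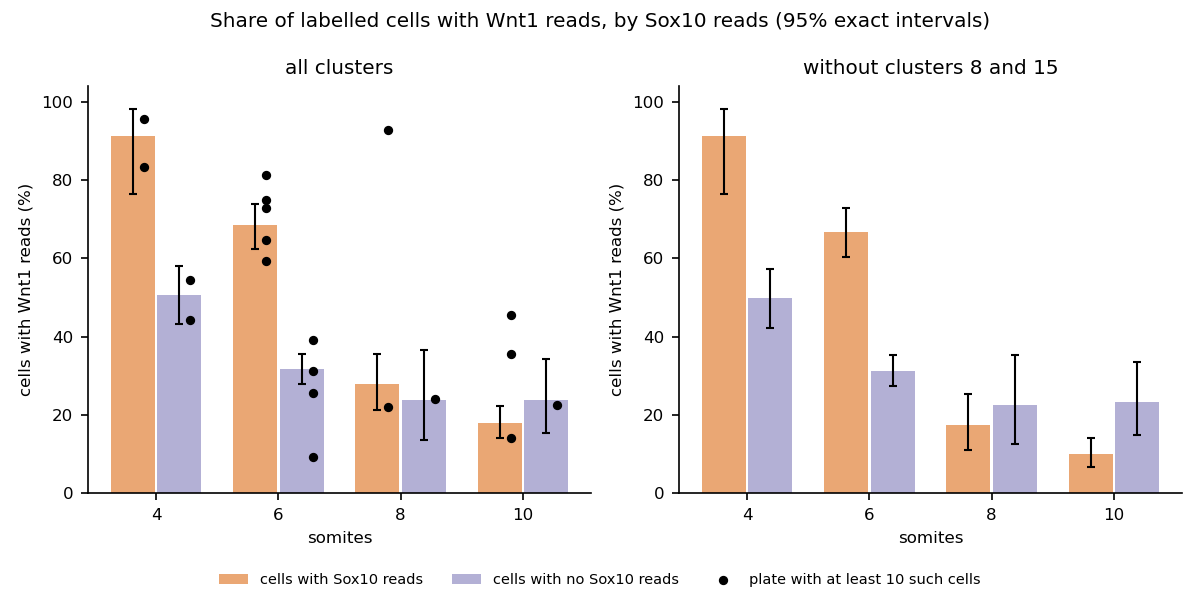
Share of cells with Wnt1 reads (y axis, %) at each stage (x axis, somites) in cells with Sox10 reads (left bar of a pair) and without (right bar), for all clusters on the left and without clusters 8 and 15 on the right. Bars are all cells of a stage, whiskers are exact 95% intervals and dots are plates with at least 10 such cells. At 4 and 6 somites the left bars stand above the right ones, and at 10 somites they stand below.

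Turned round, Sox10 was read in 24.8%, 50.4%, 77.05% and 75% of the cells with Wnt1 reads at 4, 6, 8 and 10 somites, and in 3.16%, 17.8%, 72.9% and 81.2% of the cells without. Cells with Sox10 but not Wnt1 were 1.36% of all at 4 somites and 65.7% at 10. Cells with Wnt1 but not Sox10 were 42.7%, 21.5%, 6.17% and 4.77% of the stages. Cells with both made up 14.1%, 21.9%, 20.7% and 14.3%. They were 11.7% at 8 somites and 7.61% at 10 without clusters 8 and 15.

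The cells with both genes at 8 and 10 somites were unlike the rest. At 10 somites 35 of the 63 (55.6%) belonged to cluster 8, and at 8 somites 22 of 47 (46.8%) did. They detected 8352 genes in the median at 10 somites and 7930 at 8, at equal depth, against 6711 and 6697 in cells with Sox10 alone. Of the 63, 68.3% also had Sox2 reads, against 42.9% of the cells with Sox10 alone, and 84.1% had reads of another of the 9 ligands, against 47.1%. No caller of doublets was run. The part in these shares of wells with more than 1 cell, or of the number of detected genes, was not tested. Without clusters 8 and 15, the share of Sox10-read cells with Wnt1 reads was 9.93% (6.70 to 14.03) at 10 somites and 17.4% (11.1 to 25.3) at 8. In cells without Sox10 reads it was 23.3% (14.8 to 33.6) and 22.4% (12.5 to 35.3). At 4 and 6 somites the share in Sox10-read cells was 91.2% and 66.8% without these clusters.

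**Figure D3:**
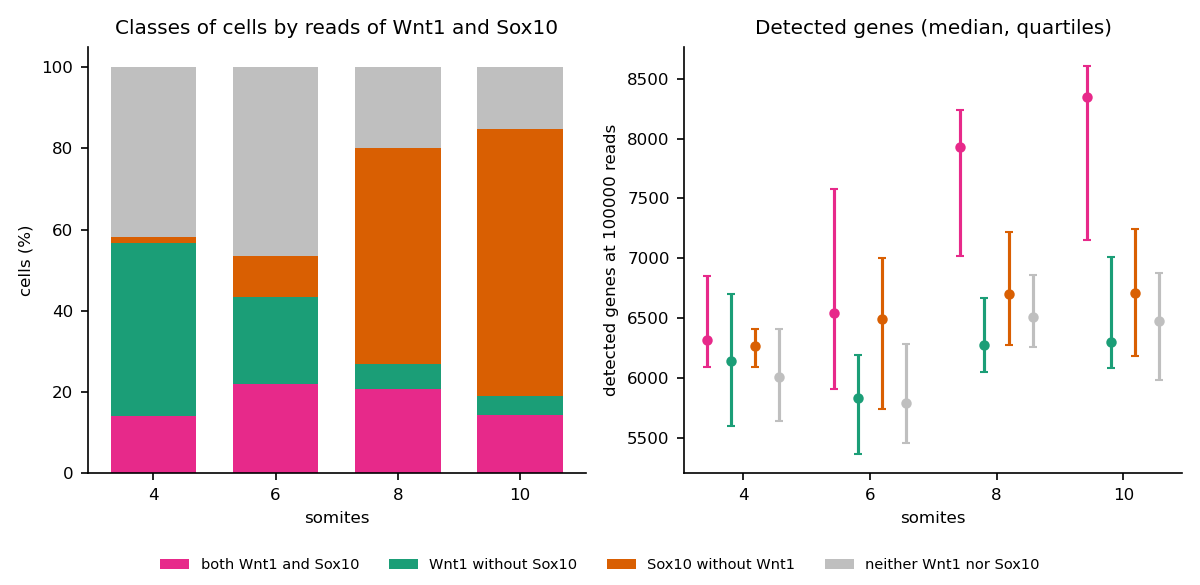
Left, share of cells (y axis, %) with both Wnt1 and Sox10 reads, with 1 of them or with neither at each stage (x axis, somites). Right, detected genes at 100000 reads in the same classes (points, median; whiskers, quartiles; the axis does not start at 0), where cells with both genes at 8 and 10 somites lie highest, at 7930 and 8352 genes.

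Of the other ligands, Wnt3a divided by Sox10 much as Wnt1 did at 4 and 6 somites. It was read in 41.2% of Sox10-read cells and 9.14% of the others at 4 somites, 20.3% and 6.54% at 6, 11.3% and 15.3% at 8, and 11.4% of either at 10. Its levels were 30.3 RPM with Sox10 reads and 6.61 without at 4 somites, and 10.6 and 5.60 at 6. They were 10.2 and 25.4 RPM at 8 somites, an order opposite to that of Wnt1, and 4.89 and 25.3 at 10. Its shares at 10 somites without clusters 8 and 15 were 6.03% with Sox10 reads and 10.5% without. Its share was higher with Sox10 reads in 6 of the 8 pools, with or without those clusters. Wnt7b went against this, with a share and a level that were lower with Sox10 reads in 8 of 8 pools, and in 7 of 8 without clusters 8 and 15. At 10 somites it had 2.84 RPM in Sox10-read cells and 34.4 RPM in cells without. The levels of Wnt6 were lower with Sox10 reads in 8 of 8 pools, and those of Wnt4, Wnt5b and Wnt8b in 7 of 8. At 10 somites Wnt5b had 11.6 RPM in Sox10-read cells and 44.5 RPM in the others, Wnt8b 3.98 and 25.1, and Wnt6 3.44 and 32.3. The levels in Sox10-read cells were lower without clusters 8 and 15, at 0.816 RPM for Wnt7b, 0.957 for Wnt8b and 2.13 for Wnt6. Wnt5a had nearly the same share on both sides at 8 somites (35.1% and 33.9%) and 28.4% against 23.9% at 10.

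Cells with Wnt1 reads carried Wnt3a reads far more often than other cells of the stage. At 4 somites 24% of Wnt1-read cells (16.8 to 32.5) and 1 of 95 other cells (1.05%, 0.0267 to 5.73) had Wnt3a reads. The shares were 21.3% and 2.97% at 6 somites, 31.1% and 5.42% at 8, and 46.4% (35.5 to 57.7) and 3.09% (1.55 to 5.46) at 10. The intervals did not overlap at any stage. Without clusters 8 and 15 the shares at 10 somites were 41.7% and 1.88%. Wnt3 was read in 16 of 84 Wnt1-read cells (19.05%, 11.3 to 29.1) and in 0 cells without Wnt1 reads at 10 somites, which allows a share of up to 0.843% of those. At 4 somites Wnt3 was read in 10.4% and 4.21%, with intervals that overlap.

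Wnt5b changed its relation to Wnt1 along the stages. It was read in 24% of Wnt1-read cells and 27.4% of other cells at 4 somites, 33.8% and 29.5% at 6, 49.2% and 36.1% at 8, and 59.5% (48.2 to 70.1) and 29.5% (24.8 to 34.5) at 10. Without clusters 8 and 15 the last pair was 47.9% (33.3 to 62.8) and 26.6% (21.8 to 31.8), which still do not overlap. Wnt8b was read in 4.80% of Wnt1-read cells and 8.42% of others at 4 somites and in 21.4% and 5.34% at 10. The pair at 10 somites without clusters 8 and 15 was 3 of 48 (6.25%, 1.31 to 17.2) and 5.625% (3.37 to 8.74), whose intervals overlap. Wnt5a was close on both sides at 6 somites (16.1% and 16.6%) and at 10 (29.8% and 26.97%). Without clusters 8 and 15 the order at 10 somites turned, with 7 of 48 Wnt1-read cells (14.6%, 6.07 to 27.8) and 27.2% of the others (22.4 to 32.4), whose intervals overlap. Cells with both Wnt1 and Sox10 reads detected the most genes at 8 and 10 somites, as given above, and the part of this in the shares was not tested.

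**Figure D4:**
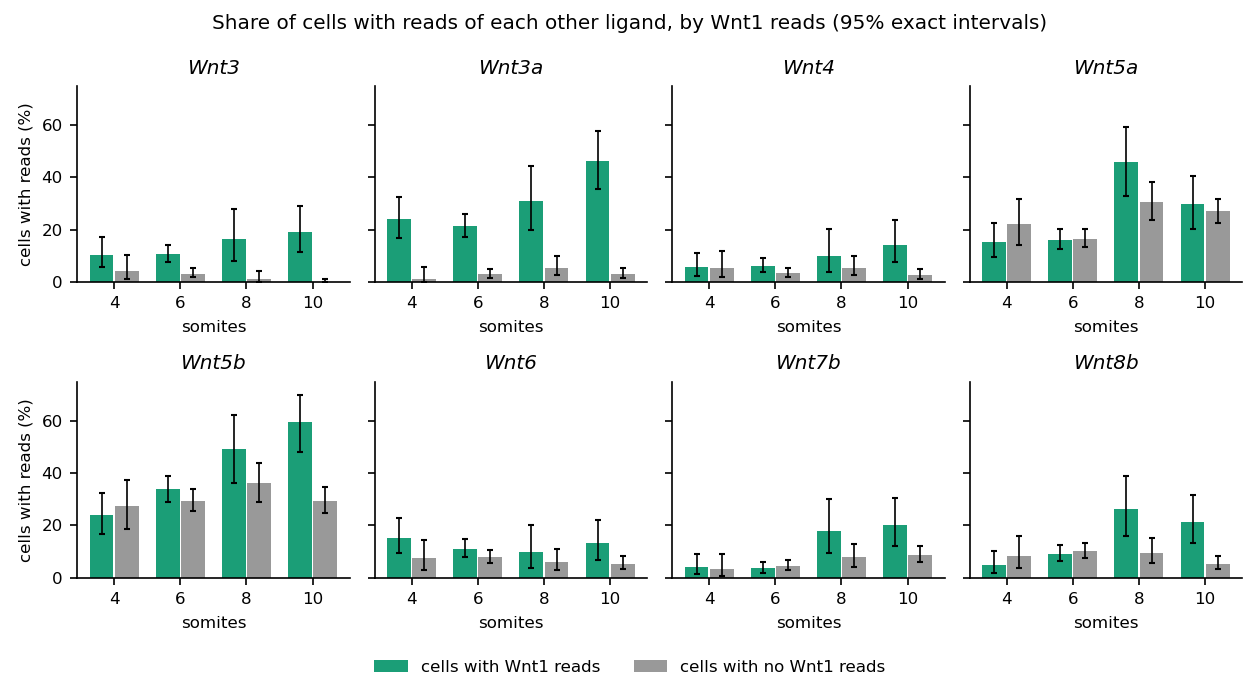
Share of cells (y axis, %) with reads of each of the other 8 ligands in cells with Wnt1 reads (left bar of a pair) and without (right bar) at each stage (x axis, somites), with exact 95% intervals. Wnt3a stands out, with 46.4% of Wnt1-read cells and 3.09% of other cells at 10 somites.

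Grouping of all kept cells without the Wnt ligands and the other Wnt genes gave 15 clusters, described by lists of cell type markers. Of these, 3 were neural crest-like, 1 early (cluster 3, of 6 somites but for 6 cells of 4, 2 of 8 and 1 of 10 somites) and 2 late (clusters 4 and 7, with 1 cell from before 8 somites). Clusters 1, 2 and 13 were neuroepithelial, with genes of the boundary of midbrain and hindbrain (En1, Pax2, Pax5), of the forebrain (Six3, Rax, Hesx1) and of the hindbrain (Egr2, Hoxb1, Hoxa2). Cluster 13 was also dorsal, with 6 of 9 dorsal genes at least 2-fold over the rest (Pax3, Pax7, Msx1, Msx2, Lmx1a and Zic2), and Olig3 and Msx3 led it. Cluster 6 was surface ectoderm-like, 10 head mesoderm-like, 11 ectomesenchyme-like, 12 endothelial-like and 14 floor plate-like. Of 12 ectomesenchyme markers, 6 were at least 2-fold over the rest in cluster 11, and 7 in each of clusters 4, 7 and 10. These markers thus do not set cluster 11 apart, and Ccl6, Crabp1 and ribosomal protein genes led it. Clusters 5, 8, 9 and 15 stayed unnamed. Cluster 5 was led by the stress-response genes Fos and Egr1 and had the same 6 dorsal genes at 2-fold over the rest, cluster 8 by Aldh1a2 and Etv2, cluster 9 by Nanog and Pim2, and cluster 15 by haemoglobin genes although 96.6% of its cells had Sox10 reads.

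Wnt1 was highest in the dorsal and hindbrain-like cluster 13, with 273.4 RPM (265.9 to 281.1) and reads in 36 of 43 cells. At a clustering resolution of 0.5, the hindbrain-like and the boundary-like cluster had equal numbers of cells. They were taken as the same cluster. Wnt1 had 118.2 RPM there, and another cluster was higher. Its level in a hindbrain-like cluster was not read at a resolution of 1.5 or with another seed. How far that cluster was stable is given for Wnt3a further on. In the main clustering, cluster 5 followed cluster 13, with an interval of 180.6 to 187.4 RPM and reads in 83.8% of cells. The boundary-like cluster 1 came next, with 116.7 RPM and 47.4%. These 3 clusters held 12.5%, 28.4% and 21.6% of all Wnt1 reads. Cluster 9 had 74.9 RPM and the forebrain-like cluster 2 had 7.53. In the endothelial-like cluster Wnt1 had 0.621 RPM and in the head mesoderm-like cluster 2.77.

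Wnt1 was common in the early crest-like cluster and scarce in the late ones. In the early cluster 3 at 6 somites it had 63.7 RPM (61.7 to 65.8) and was read in 59.2% of cells. In cluster 4 it had 7.96 RPM and 4 of 31 cells at 8 somites, and 6.68 RPM and 8.26% of cells at 10. In cluster 7 it had 0.538 RPM and 2 of 58 cells at 8 somites, and 0.623 RPM and 2 of 82 cells (2.44%, 0.297 to 8.53) at 10, level with the 1 of 58 in endothelial-like cells. The stages of the crest-like class thus sat in different clusters, so that stage and cluster cannot be told apart there. In the neuroepithelial clusters 13 and 1 the level at 10 somites was not below that at 6. Cluster 13 had 207.1, 409.3 and 207.2 RPM at 6, 8 and 10 somites, with 20, 11 and 13 cells, and cluster 1 had 209.9, 101.9, 78.03 and 162.3 RPM at 4, 6, 8 and 10 somites. Clusters 1 and 13 held few cells at 10 somites, 22 and 13.

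**Figure D5:**
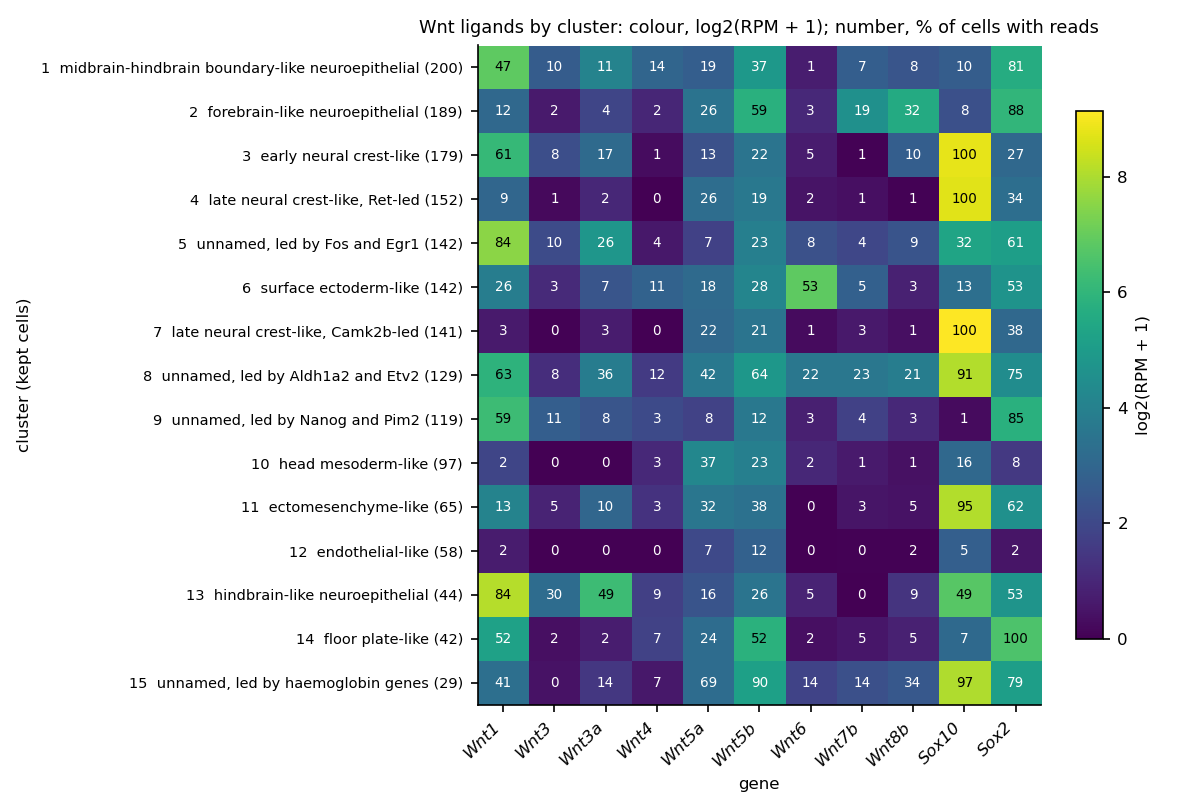
Level (colour, log2 of RPM + 1) and share of cells with reads (number in each box, %) of the 9 ligands, Sox10 and Sox2 (x axis) in the 15 clusters (y axis, kept cells in brackets). Wnt6 is brightest in the surface ectoderm-like cluster, Wnt8b and Wnt7b in the forebrain-like one, and Wnt1 with Wnt3a in the hindbrain-like one.

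For Wnt6 and Wnt8b, 1 cluster held most of the reads. Wnt6 had 115.3 RPM (112.5 to 118.1) in the surface ectoderm-like cluster, which held 85.1% of its reads, and 0.202 and 0.615 RPM in the crest-like clusters 7 and 3. Wnt8b had 46.5 RPM in the forebrain-like cluster, with 64.2% of its reads, and Wnt7b 22.7 RPM with 48.2%. Wnt5b was also highest in the forebrain-like and the floor plate-like clusters, at 54.7 and 56.2 RPM, but had at least 6.12 RPM in every cluster. Wnt3a had 76.3 RPM in the hindbrain-like cluster, 27 in cluster 5 and 15.9 in cluster 1. At a clustering resolution of 1.5 the value in the hindbrain-like cluster was 69.6 RPM and still the highest of the clusters. With another seed it was 32.2 RPM and no longer the highest. At a resolution of 0.5 it was 18.3 RPM and not the highest either, in the cluster taken as both hindbrain-like and boundary-like. Wnt4 was spread over the boundary-like (6.82 RPM) and the surface ectoderm-like cluster (6.27 RPM). Wnt5a was highest in the head mesoderm-like cluster, at 17.6 RPM, and stood at 8.60 and 7.403 RPM in the late crest-like clusters, where it was read in more cells (25.7% and 21.99%) than Wnt1. The late crest-like clusters had no reads of any of the 9 ligands in 53.9% and 57.4% of their cells.

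Many of the genes known to be expressed with Wnt1 in the dorsal tube or at the boundary had higher levels in Wnt1-read cells. Of 15 such genes, 9, 10, 8 and 8 reached 5 RPM at 4, 6, 8 and 10 somites, and 7, 6, 4 and 6 of them were at least 2-fold higher in Wnt1-read cells. Over all genes 2.3%, 0.661%, 3.75% and 5.11% were. Lower by 2-fold were 0, 1, 0 and 0 of the list, against 4.53%, 2.94%, 2.17% and 1.8% of all genes, and the 1 was Fgf8 at 6 somites (10.2 RPM in Wnt1-read cells and 21.2 in the others). The median log2 ratio of the list was 2.06, 1.27, 0.9965 and 2 along the stages, against -0.01, -0.00, 0.01 and 0.03 for all genes. At 10 somites Lmx1a, a factor of the roof plate, had 16.7 RPM in Wnt1-read cells and 1.40 in the others, Dmbx1 11.5 and 0.758, En1 13.2 and 1.69, and Pax3, a dorsal factor, 60.5 and 21.1. Of the other 8 ligands, 1 of 5, 2 of 6, 3 of 7 and 4 of 7 were higher by 2-fold in Wnt1-read cells along the stages, and 1, 0, 0 and 1 were lower. Wnt3a was among the higher ones each time. Wnt8b was the lower one at 4 somites and Wnt6 at 10. Without clusters 8 and 15, 9 of 9 dorsal and boundary genes were higher at 10 somites and 6 of 8 at 8, with 1 lower at 8 (Fgf8). All genes then had 5.89% higher and 4.24% lower at 8 somites and 8.23% and 3.88% at 10. Of the ligands, 2 of 7 were then higher and 2 lower at 8 somites (Wnt6 and Wnt7b), and 4 of 8 were higher and 3 lower at 10 (Wnt5a, Wnt6 and Wnt7b). Of 8 measured feedback targets of the pathway, 3, 0, 2 and 4 were higher by 2-fold in Wnt1-read cells along the stages, and 1, 1, 0 and 0 were lower. Sp5 had 48.6 RPM in Wnt1-read cells and 7.81 in the others at 10 somites, Axin2 26.3 and 10.6, and Nkd1 77.02 and 33.2. Dkk1, which is also on the list of antagonists, changed direction along the stages. It was the lower one at 4 somites (29.84 RPM in Wnt1-read cells and 70.84 in the others) and at 6 (16.09 and 70.85). At 10 somites Dkk1 was among the higher ones (102.1 and 25.25 RPM). The feedback targets gave the same counts at 8 and 10 somites without clusters 8 and 15. Wls, the carrier of Wnt ligands, had a log2 ratio of 1.22 in Wnt1-read over other cells at 10 somites, and 273.8 and 250.2 RPM at 4.

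Likeness to Wnt1 was read as the mean of Pearson's r across cells within 10 pools of 1 stage and plate, over 10001 genes. Each pool held at least 20 thinned cells, so the pools of 15 and 12 cells were left out. Cells of a pool share stage and plate and were thinned to the same depth. The 8 genes most like Wnt1 were Wnt3a (mean r 0.381, 0.0426 to 0.604 over pools), the growth factor gene Fgf15 (0.371), Fam181b (0.362), the transcription factor gene Rfx4 (0.361), En1 (0.361), the Wnt feedback gene Nkd1 (0.358), the retinoic acid-binding protein gene Crabp2 (0.353) and Wscd1 (0.338). Sox10 had 0.0563 with Wnt1, between -0.46 and 0.319 over pools. Wnt3a was most like Wnt1, Zic5 (0.345) and Tfap2c (0.334). The strongest likeness of any ligand was that of Wnt6 to the epithelial genes Cldn4 (0.642), Cldn6 (0.616) and Epcam (0.594). Wnt8b was most like Lhx5 (0.432), Pax6 (0.386) and Cntnap2 (0.380), of which Lhx5 and Pax6 are forebrain factors. Wnt5b was most like Irs4 (0.392), Otx2 (0.328) and Lmo1 (0.325), and Wnt7b like Dmrt3 (0.314), Wscd1 (0.292) and Otx2 (0.291). For Wnt3 they were Msx3, Wnt3a and Scrn1, for Wnt4 Hes3, Cib2 and Fam83g, and for Wnt5a Fgfrl1, Ntn1 and Hs3st3b1, all at 0.263 or below.

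The rest of the pathway was read in the same comparison of 10 against 4 somites, by lists of known genes. Of 16 receptors and co-receptors, all 16 reached 5 RPM, 1 was higher by 2-fold and 3 were lower. Over all genes in this comparison 6.17% were higher and 6.65% lower. Fzd7 had 134.8 RPM at 10 somites and 53.1 at 4 (log2 ratio 1.34), and Fzd5 had 1.67 and 27.6 (-4.05), Fzd6 3.01 and 11.04 (-1.88) and Fzd8 9.25 and 28.2 (-1.61). Within plates, by way of 6 and of 8 somites, Fzd7 stood at 0.49 and 0.31, so that it did not reach 2-fold by either route. Fzd5 stood at -2.37 and -0.93 and Fzd8 at -1.24 and -0.69, below 2-fold by way of 8, while Fzd6 was past 2-fold by both routes (-2.69 and -2.22). By cluster, Fzd7 had 203.3 and 178.6 RPM in the late crest-like clusters, and Fzd5 57.8 RPM in the forebrain-like one and 0.302 and 0.0337 in the late crest-like ones. Of the genes of ligand secretion, 0 of 6 passed 2-fold either way. Of the R-spondins and genes of receptor turnover, 0 of 4 were higher and 3 were lower, namely Rspo1 (-1.70), Lgr5 (-1.59) and Lgr4 (-1.06). By way of 6 and of 8 somites, Rspo1 stood at -3.71 and -3.10, Lgr4 at -0.49 and -1.60, and Lgr5 at 0.97 and -0.66, so that no direction can be given for Lgr5.

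Among secreted antagonists 2 of 7 were higher, Sfrp5 (17.02 RPM at 10 somites and 2.75 at 4, log2 ratio 2.63) and Kremen1 (1.02), and 1 was lower, Frzb (50.9 and 191.7 RPM, -1.91). Within plates by way of 6 and of 8 somites, Sfrp5 stood at 5.52 and 0.64 and Kremen1 at 0.82 and 0.36, and Frzb was past 2-fold by both routes (-2.18 and -2.46). Of the 15 measured genes of beta-catenin, its destruction complex and the TCF factors, 1 was higher (Bcl9l, 1.24) and 0 were lower. Among feedback targets 1 of 8 was higher (Nkd2, 1.05) and 2 were lower (Nkd1, 40.6 and 117.2 RPM, -1.53, and Sp5, 15.6 and 44.2 RPM, -1.5). Nkd2 stood at 0.32 by way of 6 somites and Sp5 at -0.98 by way of 8, both short of 2-fold, and Nkd1 and Bcl9l were past 2-fold by both routes. Of the dorsal and boundary genes, 0 of 9 were higher and 4 were lower, Pax2 (-4.60), En1 (-2.48), Dmbx1 (-2.39) and Lmx1a (-1.12). Of these, Dmbx1 stood at -0.61 by way of 6 somites, and the other values by either route were past 2-fold. The median log2 ratio was -0.33 for receptors, -1.32 for R-spondins and turnover, -0.06 for antagonists, -0.18 for feedback targets and -0.88 for dorsal and boundary genes, against 0.01 for all genes. The boundary-like cluster held 22 cells at 10 somites and 18 at 4, and the late crest-like clusters held cells of 10 somites and none of 4, and the part of the changing mix of clusters in these ratios was not tested.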

How the data were processed

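Single labelled cells were measured by Smart-Seq2. The deposited table holds raw read counts for each gene in each cell, as its whole-number values show. The tools bcl2fastq 2.18 and STAR 2.6 and the build mm10 are named in the submitters' processing notes. No source used here gives the read counter, its annotation, its strand setting or a cell filter. Stages came from the labels.

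Cells needed at least 50000 reads on genes and 1500 detected genes. RPM left out spike-ins and Rn45s, and per-kilobase levels used exon unions of GENCODE vM21. Log2 ratios used 0.5 added reads. A ratio of 2-fold was counted where 1 group had 5 RPM, and sums of 3 reads or fewer on both sides gave none. Intervals were exact Poisson or Clopper-Pearson at 95%. Thinning to 100000 reads kept 1719 cells. Leiden clusters (scanpy 1.11.5) used neither Wnt ligands nor Wnt pathway genes. A cluster was named from 3 or more markers unless its leading genes went against the name. No test was run, as each stage is 1 pool.

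Members, lists, markers and comparisons were chosen with earlier results of these data known. Named genes were the ligands, up to 4 genes with the largest ratios of each list, and the genes most like each ligand across cells, and Wnt1-read cells are also described by genes of the lists that were chosen after their values were seen. Alternatives changed totals, scaling (edgeR 4.0.16, DESeq2 1.42.0), filters, plates, thinning and clusters. The ratio step was tested on simulated data.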

Additional observations from a re-analysis of the deposited data

How the results depend on the processing

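Wnt1 was lower at 10 than at 4 somites under all 17 alternatives. Its log2 ratio of -2.03 was -1.88 with Rn45s kept in the total, -1.71 as a mean over cells, -1.67 with plates weighted equally, -2.26 without clusters of other cell types, -2.18 without clusters 8 and 15 (chosen after seeing the data), and -1.37 and -0.50 within plates by way of 6 and 8 somites. Leaving out each plate in turn gave -2.59 (without plate F) to -1.60 (without plate D). The 1 ligand higher by 2-fold became 0 with Rn45s kept, 2 within plates by way of 6 somites, 3 by way of 8 and 2 without other cell types, and 1 to 3 with a plate left out. The ratio of Wnt7b itself was past 2-fold under all 17 alternatives (log2 1.44 to 2.98). With Rn45s kept it was not counted because its level fell short of 5 RPM. The 1 lower, Wnt1, became 2 by either within-plate route, and was 1 with any plate left out. By way of 8 somites the 2 were Wnt6 and Wnt8b, and Wnt1 at -0.50 was no longer past 2-fold. Among Sox10-read cells, the Wnt1 share of 91.2% at 4 somites was 73.5% with at least 3 Wnt1 reads required, and 83.3% to 95.5% with a plate left out. The 17.9% at 10 somites was 24.5% without thinning, 12.5% with Rn45s kept, 11.4% with 3 Wnt1 reads and 9.93% without clusters 8 and 15. With a plate left out it was 15.1% to 37.3%, the highest without plate C. Among cells without Sox10 reads, 50.5% at 4 somites was 61.9% without thinning and 36.02% with 3 Wnt1 reads, and 44.3% to 54.3% with a plate left out. At 10 somites 23.9% was 34.8% without other cell types, and 22.2% to 37.5% with a plate left out, the highest without plate C. With the main setting counted in, the share was higher with Sox10 reads in 13 of 13 settings at 4 somites and 16 of 16 at 6. It was lower in 14 of 14 at 10, with differences of -16.7 to -0.21 percentage points. At 8 somites it was higher in 11 of 13. Without plate C the shares at 10 somites were 37.3% with Sox10 reads and 37.5% without, so the order there rests largely on plate C. The settings reuse the same cells, and over all clusters the intervals at 10 somites overlap. The cause of these shifts was not tested. No paired analysis was possible because the labels tie no cell of 1 stage to a cell of another and no test was run, and plates that hold more than 1 stage gave only the within-plate ratios above. Depth limits the small plates, where 3 reads stand at 0.397 and 0.406 RPM.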
